A study of Homo sapiens with 6 samples.

Results

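The stathmin family was followed across the 6 libraries of this series as the 4 genes whose rows carry the symbols STMN1, STMN2, STMN3 and STMN4, out of 27961 genes in the count files. SH-SY5Y, the source of the RNA, is an established human line from a neuroblastoma and has features of sympathetic neurons. Cells had been infected with lentivirus in the presence of 8 µg/mL polybrene and selected with 2 µg/mL puromycin for 3 days from 48 hours after infection. The libraries formed 3 groups of 2, namely a hairpin against TARDBP (TRCN0000016038), control hairpin 1 (SHC007) and control hairpin 2 (SHC016), so every group carried virus, a hairpin and puromycin resistance. Only 1 hairpin targeted TARDBP, and its effects on other transcripts cannot be told apart from those of lowering TARDBP. Nothing in the labels tells if both libraries of a hairpin stem from separate cultures, so p-values measure a spread between libraries that may be only technical.

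Stathmins are small phosphoproteins that bind tubulin dimers, keep them from assembling and favour the shortening of microtubules, until phosphorylation releases the tubulin. STMN1, also called stathmin or Op18, is a cytosolic protein found in many cell types and is abundant in dividing cells. STMN2 (SCG10), STMN3 (SCLIP) and STMN4 (RB3) are neuronal members that carry an added N-terminal region, which is palmitoylated and holds them on Golgi and vesicle membranes. STMN2 supports axon growth and repair. Its transcript is a known target of TDP-43, the RNA-binding protein encoded by TARDBP. When nuclear TDP-43 is lost, as in most cases of amyotrophic lateral sclerosis, a cryptic exon is spliced into human STMN2 and yields a short, truncated RNA.

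With the TARDBP hairpin, STMN2, STMN3 and STMN4 fell against each control hairpin, and STMN1 fell against control hairpin 2 and was not called against control hairpin 1. In bulk RNA fewer cells of a kind and less RNA per cell cannot be told apart, and this applies to every level given here. Levels below are CPM, counts relative to library size after scaling by edgeR's TMM factors, and changes are log2 fold changes with their standard error (SE) from edgeR's quasi-likelihood test over 17163 genes and repeat families, adjusted by Benjamini and Hochberg. A change was called at an adjusted p below 0.05. Calls were common in these data, at 48.2% of features against the mean of both controls, 42.9% against control hairpin 1, 50.2% against control hairpin 2 and 43.2% between the control hairpins. Lower calls alone made up 24.3%, 21.8% and 26.2% of features in the 3 comparisons of the TARDBP hairpin, and higher calls against the mean of both controls 23.9%. A fall by itself was therefore common. The median log2 fold change over all features against the mean of both controls was 0.04, with an interquartile range of -0.36 to 0.39. Beside this the medians over the 4 stathmins were -1.79 against the mean of both controls, -2.05 against control hairpin 1 and -1.39 against control hairpin 2.

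Each library held between 18605745 and 21698339 counts, and libraries of the same hairpin correlated at r = 0.991 to 0.993 across features, which are not independent replicates. TARDBP itself had 365 and 462 counts with its hairpin, against 1478 to 1761 counts in the 4 control libraries, and its log2 fold change was -1.93 against the mean of both controls (SE 0.126, adjusted p = 1.68e-05, edgeR). HAND2, a transcription factor gene that marks noradrenergic neuroblastoma, had at least 6677 counts in each library, while TH, the enzyme that starts catecholamine synthesis, had 0 counts with the TARDBP hairpin and 1 to 3 in control libraries. Another gene with a stathmin domain, STMND1, had 0 to 2 counts per library and is not a member here.

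STMN2 took the most reads of the 4 genes in each control library. It stood at 155 and 131 CPM with the TARDBP hairpin, 749 and 714 CPM with control hairpin 1, and 435 and 401 CPM with control hairpin 2. Both libraries with the TARDBP hairpin were below all 4 control libraries, which held for 22.8% of all features. The control groups did not overlap each other either, and the share of all features for which this held was not counted. Its raw counts were 2987 and 2518 with the TARDBP hairpin against 8256 to 14699 in the controls, so counting error was small beside the differences. Against the mean of both controls the log2 fold change of STMN2 was -1.95 (SE 0.0999, adjusted p = 7.71e-06, edgeR), and it fell to 25.8% of the control level with a 95% confidence interval of 22 to 30.2%. That remaining share lies beside the 26.2% found for TARDBP itself (95% interval 21.5 to 32.0%). The likeness holds for the mean of both controls only. TARDBP had means of 76.6 CPM in control hairpin 1 and 87.1 CPM in control hairpin 2, whereas STMN2 was higher in control hairpin 1. STMN2 fell by 2.36 against control hairpin 1, which is 5.13-fold (adjusted p = 6.48e-06), and by 1.55 against control hairpin 2, which is 2.93-fold (adjusted p = 2.16e-05). Counts per gene do not show where on the transcript the reads fell, so reads from a truncated STMN2 RNA and from the full transcript are not separated here.

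STMN4, a brain-enriched member, took the fewest reads of the family and had the largest of the 4 changes against control hairpin 1. Its levels were 6.67 and 5.97 CPM with the TARDBP hairpin, 54.7 and 46.0 CPM with control hairpin 1, and 15 and 15.7 CPM with control hairpin 2. The 3 groups did not overlap, and the libraries with the TARDBP hairpin were again below all controls, as for 22.8% of all features. How often all 3 groups separate over all features was not counted. STMN4 fell by 2.99 against control hairpin 1, to 12.6% of that level (SE 0.139, adjusted p = 6.48e-06, edgeR). It fell by 1.28 against control hairpin 2, to 41.2% (SE 0.142, adjusted p = 2.06e-04). Against the mean of both controls it fell by 2.14 (SE 0.129, adjusted p = 1.24e-05), a call that was lost when the 4 control libraries were treated as 1 group (log2 fold change -2.38, adjusted p = 0.0556). That setting counts the distance between the control hairpins as spread, and the distance was large for this gene. Its values under the TARDBP hairpin rest on 129 and 115 counts.

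STMN3, a neuronal member related to STMN2, fell by nearly the same amount against either control. It stood at 36.3 and 26.02 CPM with the TARDBP hairpin, 93.1 and 114 CPM with control hairpin 1, and 84.0 and 92.7 CPM with control hairpin 2. The libraries with the TARDBP hairpin lay below all 4 controls, and the control hairpin 2 libraries lay just below those of control hairpin 1. STMN3 fell by 1.74 against control hairpin 1 (SE 0.166, adjusted p = 1.08e-04, edgeR) and by 1.50 against control hairpin 2 (SE 0.166, adjusted p = 2.01e-04). Against the mean of both it fell by 1.62, to 32.5% of the control level (95% interval 25.6 to 41.4%). The 2 libraries with the TARDBP hairpin lay further apart for STMN3 than for the other members. Without TARDBP hairpin replicate 1 the log2 fold change was -1.88 and without replicate 2 it was -1.40, and both were called.

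STMN1 lay differently against each control. Its levels were 155 and 171 CPM with the TARDBP hairpin, 128 and 154 CPM with control hairpin 1, and 246 and 254 CPM with control hairpin 2. STMN1 libraries with the TARDBP hairpin sat just above those of control hairpin 1 and well below those of control hairpin 2. Against control hairpin 2 STMN1 fell by 0.62, to 64.9% (95% interval 54.6 to 77.2%, SE 0.109, adjusted p = 0.00202, edgeR). Against control hairpin 1 the log2 fold change was 0.20 (95% interval -0.05 to 0.45, SE 0.109, adjusted p = 0.167), and it was not called. Upper quartile scaling gave 0.30 with an adjusted p of 0.0491, where that scaling also shifted the median of all features in this comparison by 0.10. Against the mean of both controls the value was -0.21 (95% interval -0.43 to 0.01, adjusted p = 0.101), which mixes differences of opposite sign. Without control hairpin 1 replicate 1 that value was -0.28 and was called (adjusted p = 0.0344).

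**Figure D1:**
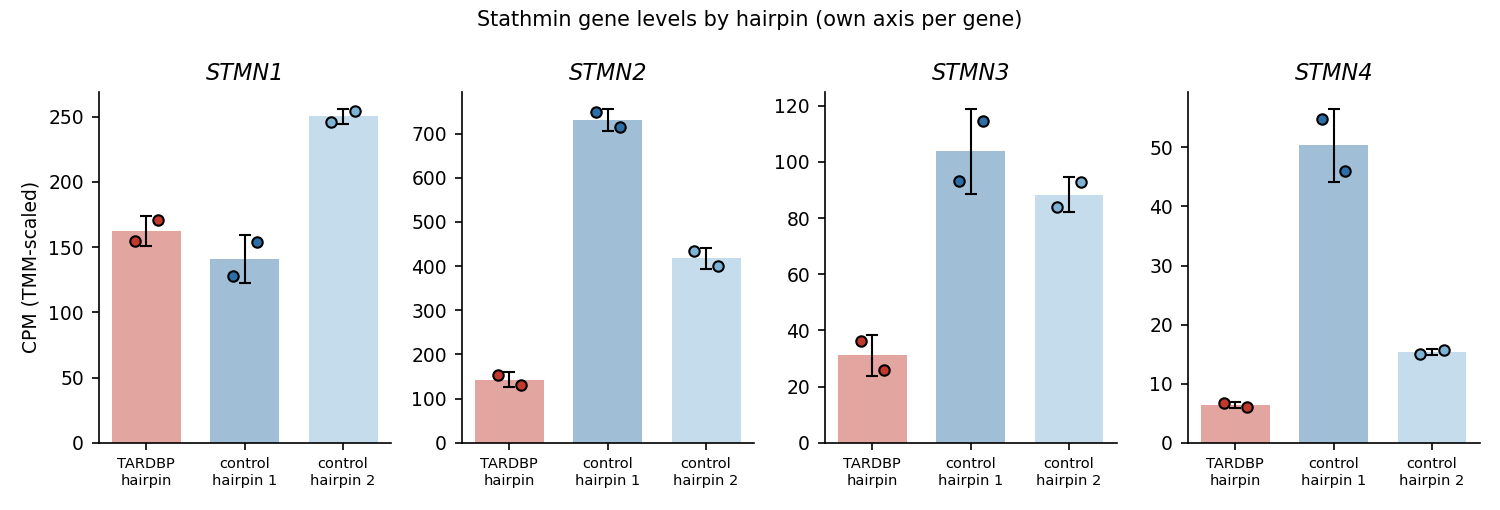
TMM-scaled CPM of each stathmin gene by hairpin, with a separate vertical axis from 0 for each gene. Points are libraries, bars are means and lines are SD (n = 2). STMN2, STMN3 and STMN4 are lower in both TARDBP hairpin libraries than in all 4 controls, while STMN1 at 155 and 171 CPM lies beside control hairpin 1 and below control hairpin 2 at 246 and 254 CPM.

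The comparison of the control hairpins with each other shows how far these genes differ without a hairpin against TARDBP. Lower calls made up 20.4% of features here and higher calls 22.8%. STMN4 was lower in control hairpin 2 than in control hairpin 1 (log2 fold change -1.71, SE 0.128, adjusted p = 5.76e-05, edgeR), at 15.4 ± 0.517 CPM in control hairpin 2 against 50.4 ± 6.17 CPM in control hairpin 1 (SD, n = 2 each). This difference was larger in size than the -1.28 between the TARDBP hairpin and control hairpin 2, and the difference of these values was not tested. STMN2 was lower in control hairpin 2 as well (log2 fold change -0.81, SE 0.105, adjusted p = 6.37e-04), at 418 ± 23.8 CPM against 732 ± 24.7 CPM. STMN1 went the other way and was higher in control hairpin 2 by 0.83 (SE 0.109, adjusted p = 7.01e-04), at 250.4 ± 5.85 CPM against 141 ± 18.5 CPM. The STMN3 difference was -0.23 (95% interval -0.59 to 0.13, adjusted p = 0.266) and was not called.

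Placed between the outer groups, control hairpin 2 lay 57.2% of the log2 distance from control hairpin 1 to the TARDBP hairpin for STMN4, 34.3% for STMN2 and 13.4% for STMN3. In order of level, STMN2 and STMN4 ran from the TARDBP hairpin at the bottom through control hairpin 2 to control hairpin 1, with each step called. STMN3 had the TARDBP hairpin at the bottom, with control hairpins 2 and 1 not differing beyond their spread. STMN1 had control hairpin 1 and the TARDBP hairpin at the bottom, not differing by the test, and control hairpin 2 on top. The comparisons against each control share the TARDBP hairpin libraries, so their values stand side by side and are not independent.

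**Figure D2:**
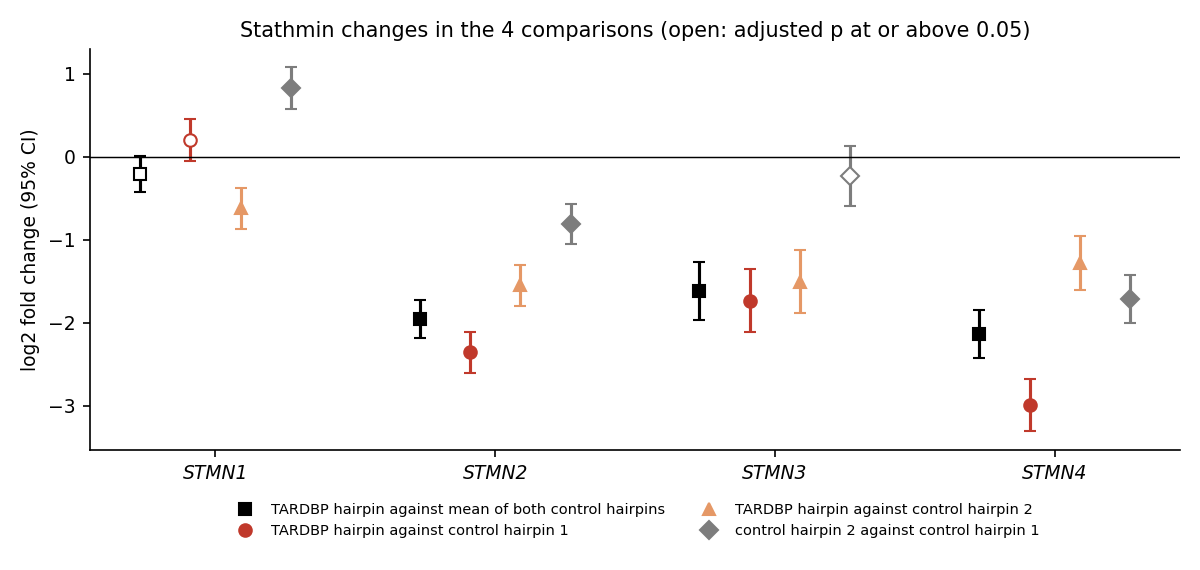
Log2 fold changes of the 4 stathmin genes in the 4 comparisons, with 95% confidence intervals from the edgeR fit. Filled symbols are called at an adjusted p below 0.05. The neuronal members lie between -1.28 and -2.99 in the comparisons of the TARDBP hairpin, and the control hairpins differ by -1.71 for STMN4 and 0.83 for STMN1.

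The make-up of the family differed between hairpins. Summed over the 4 genes, the family held 352 and 333 CPM with the TARDBP hairpin, 1025 and 1029 CPM with control hairpin 1, and 780 and 764 CPM with control hairpin 2. The mean with the TARDBP hairpin was 33.4% of that with control hairpin 1 and 44.4% of that with control hairpin 2. These sums, like the ratios between members further below, are of CPM not divided by length. Shares of the family were taken per length, as CPM per kb of the longest principal transcript in GENCODE release 29. That length runs from 1712 bases for STMN1-203 to 2288 bases for STMN4-202. On this scale STMN1 made up 50.5% and 57.7% of the family level under the TARDBP hairpin, 15.7% and 18.7% under control hairpin 1, and 37.5% and 39.4% under control hairpin 2. The share of STMN2 was 38.9% and 34.1% under the TARDBP hairpin, 70.7% and 66.6% under control hairpin 1, and 51.0% and 47.8% under control hairpin 2. STMN1 thus held the largest share per kb with the TARDBP hairpin and STMN2 in both controls.

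That order with the TARDBP hairpin depended on the length used. With the length of all exons of a gene together, an alternative chosen after seeing the data and 6261 bases for STMN1, the STMN1 share was 26.5% ± 3.95 with the TARDBP hairpin, 5.91% ± 0.843 with control hairpin 1 and 16.0% ± 0.815 with control hairpin 2 (SD, n = 2 each). STMN2 then led in every group, at 61.2% ± 2.35 with the TARDBP hairpin. With either length the STMN1 share was highest under the TARDBP hairpin and lowest under control hairpin 1. STMN3 kept a share of 6.68 to 10.9% per kb of the principal transcript in all 6 libraries. STMN4 made up 1.57% ± 0.0843 with the TARDBP hairpin, 4.59% ± 0.597 with control hairpin 1 and 1.77% ± 0.0796 with control hairpin 2.

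**Figure D3:**
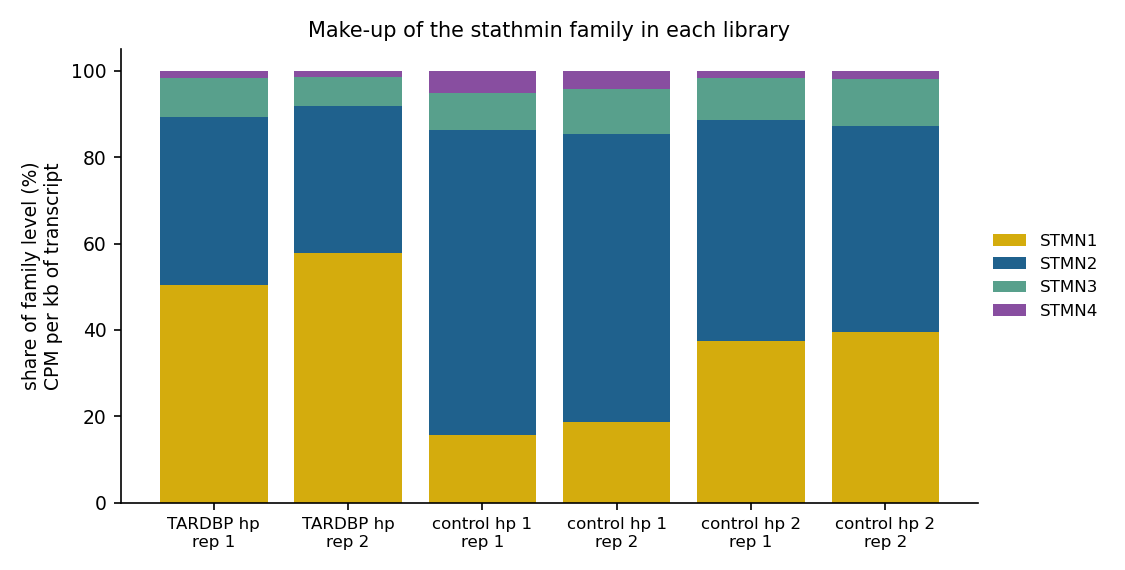
Share of each stathmin gene in the family level, in percent, for each library, from CPM per kb of the longest principal transcript. STMN1 makes up 50.5% and 57.7% in the TARDBP hairpin libraries (hp, hairpin), 15.7% and 18.7% under control hairpin 1 and 37.5% and 39.4% under control hairpin 2.

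Ratios between members within a library do not depend on library scaling. The CPM of STMN1 over that of STMN2 was 1.00 and 1.30 under the TARDBP hairpin, 0.171 and 0.216 under control hairpin 1, and 0.566 and 0.635 under control hairpin 2. Each ratio with the TARDBP hairpin was above every control ratio. The log2 ratio differed by 1.75 between the TARDBP hairpin and the 4 controls, with 2 of 15 arrangements of the libraries at least as extreme (exact two-sided permutation p = 0.133, adjusted p = 0.267 over the 6 pairs of members). The same p-values were obtained for STMN1 over STMN3, with a difference of 1.41, and for STMN1 over STMN4, with a difference of 1.85. With 2 libraries against 4 the smallest p this test can give is 0.0667, so it cannot pass a threshold of 0.05. It also shuffles single libraries and ignores that they come in hairpin groups. The ratios of STMN1 over STMN2 in control hairpins 1 and 2 did not overlap. Among the neuronal members the differences from the mean of the 4 controls were -0.34 for STMN2 over STMN3, 0.10 for STMN2 over STMN4 and 0.44 for STMN3 over STMN4, with exact permutation p-values of 0.333 to 0.800. For both ratios to STMN4 these means join controls on opposite sides of the TARDBP hairpin. The log2 ratio of STMN3 to STMN4 was 2.36 and 2.03 under the TARDBP hairpin, 0.76 and 1.31 under control hairpin 1, and 2.45 and 2.52 under control hairpin 2. That of STMN2 to STMN4 was 4.43 and 4.34 under the TARDBP hairpin, 3.76 and 3.94 under control hairpin 1, and 4.81 and 4.63 under control hairpin 2.

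Promoter sequence was available for 2 of the 4 genes, STMN1 and STMN3, in the RefSeq promoter windows of build GRCh38.p14. They are shown because STMN1 and STMN3 had different values under the TARDBP hairpin and because E2F1, FOXM1 and REST, which are reported to act on stathmin promoters, themselves changed. No FOXM1 site was searched for, and the part of these factors in the stathmin values was not tested. Each line gives the 250 bases before an annotated start, on the minus strand, for STMN1 at chr1:25906420-25906669 and for STMN3 at chr20:63652767-63653016. Capitals mark matches on either strand to the E2F sites TTTGGCGC, TTTCGCGC and TTTCCCGC, to the E box CACGTG and to the CCAAT box.
STMN1: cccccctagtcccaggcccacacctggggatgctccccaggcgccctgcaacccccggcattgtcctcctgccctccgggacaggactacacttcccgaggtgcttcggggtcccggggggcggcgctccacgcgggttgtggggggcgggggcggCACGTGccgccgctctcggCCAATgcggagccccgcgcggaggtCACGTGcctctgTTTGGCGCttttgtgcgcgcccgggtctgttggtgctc
STMN3: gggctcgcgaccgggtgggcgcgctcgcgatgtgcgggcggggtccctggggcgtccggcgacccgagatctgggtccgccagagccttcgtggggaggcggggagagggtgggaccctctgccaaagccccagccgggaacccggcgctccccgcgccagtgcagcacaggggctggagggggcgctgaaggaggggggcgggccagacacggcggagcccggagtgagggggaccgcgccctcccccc

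The STMN1 window held TTTGGCGC with its left end 38 bases before the start, a word found in 0.550% of 35116 promoter windows. The other E2F words searched occur in 0.439% (TTTCGCGC) and 1.39% (TTTCCCGC) of windows, and the share with any E2F word was not counted. The STMN1 window also held CACGTG at 94 and 50 bases before the start (6.34% of windows have at least 1) and CCAAT at 75 bases (32.0%). None of these words occurred in the STMN3 window. GGGCGG, the GC box, occurred 3 times in STMN1 and 2 times in STMN3 (42.6% of windows). The element bound by REST has the left part TTCAGCACC and the right part GGACAG. The left part occurred in neither window (0.288% of all windows) and the right part had 1 match in STMN1 (17.2%). TATAAA occurred in neither (10.7%), and no match in either window overlapped another. STMN1 has a further pair of annotated starts, whose windows held 1 match to TTTCCCGC (1.39% of windows) and no CACGTG. Both printed windows were rich in G and C, at 73.2% for STMN1 and 78.0% for STMN3, against a median of 58% over all windows. A match to these letters is a description of the sequence and does not show that a factor binds there.

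The genes reported to regulate stathmin transcription changed in 5 of 6 cases against the mean of both controls, 2 higher and 3 lower. Of all features, 48.2% were called in this comparison. REST, the repressor that keeps neuronal genes such as STMN2 silent outside neurons, stood at 115 and 126 CPM with the TARDBP hairpin, 66.1 and 60.0 CPM with control hairpin 1, and 96.0 and 74.6 CPM with control hairpin 2. Both libraries with the TARDBP hairpin were above all 4 controls, as for 23.3% of all features. REST rose by 0.72 against the mean of both controls (SE 0.108, adjusted p = 9.72e-04, edgeR), and by 0.93 and 0.50 against control hairpins 1 and 2. Its corepressor gene RCOR1 fell by 0.78 (adjusted p = 4.07e-04), while SIN3A, another REST cofactor, rose by 0.33, a call lost without TARDBP hairpin replicate 1 (adjusted p = 0.0621). SIN3A rose by 0.54 against control hairpin 2 and was not called against control hairpin 1 (0.12, adjusted p = 0.288). E2F1, a cell cycle activator, had 4.35 and 2.6 CPM with the TARDBP hairpin, against 11.0 and 14.5 CPM with control hairpin 1 and 24.0 and 30.9 CPM with control hairpin 2 (log2 fold change -2.43, SE 0.236, adjusted p = 1.08e-04). FOXM1, a factor that drives mitotic genes, fell by 2.54 (SE 0.281).

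Proliferation markers moved with STMN1 between the control hairpins, and their part in the STMN1 values was not tested. Their summed level over 10 genes was 135 and 144 CPM with the TARDBP hairpin, 191 and 273 CPM with control hairpin 1, and 673 and 722 CPM with control hairpin 2. None of the 10 was at 0 in any library. Against the mean of both controls 8 of 10 fell and 1 rose, with a median of -1.97, beside 24.3% and 23.9% of all features. Between the control hairpins 9 of 10 were higher in control hairpin 2, with a median of 2.06, beside 22.8% of all features. MKI67, TOP2A, CCNB1 and MCM2 fell, with log2 fold changes of -6.61, -3.89, -2.34 and -1.84 in that order. Against control hairpin 1, 6 of 10 fell (21.8% of all features did), with a median of -1.12, whereas STMN1 was not called there.

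Of the noradrenergic markers of the cell line, 8 of 10 tested genes fell against the mean of both controls and 1 rose, with a median of -0.80. Over all features 24.3% fell and 23.9% rose in this comparison. Their summed level was 1166 and 1031 CPM with the TARDBP hairpin, 2027 and 2282 CPM with control hairpin 1, and 1534 and 1718 CPM with control hairpin 2, the same order of groups as for STMN2 and STMN4. Single genes did not all follow the order of the sum. Of the 10 tested, 5 were lower in control hairpin 2 than in control hairpin 1, 2 were higher and 3 were not called. Between the control hairpins 20.4% of all features were lower and 22.8% higher. DDC had means of 29.2 CPM with control hairpin 1 and 43.3 CPM with control hairpin 2. CHGB and CHGA, which encode vesicle proteins, had log2 fold changes of -2.25 and -3.10, and the catecholamine enzyme genes DBH and DDC of -3.83 and -1.73. Markers of other cell types (fibroblast, Schwann, endothelial, immune and epithelial) fell in 5 of 11 tested genes of 17 and rose in 3. Their sum was 145 and 157 CPM with the TARDBP hairpin, 1421 and 1432 CPM with control hairpin 1, and 1841 and 1997 CPM with control hairpin 2. COL3A1, a fibrillar collagen gene of fibroblasts, made up most of this in the controls, with 1307 to 1652 CPM there and 52 and 63.7 CPM with the TARDBP hairpin (log2 fold change -4.65). COL1A1 and PDGFRB had log2 fold changes of -1.56 and -1.74, and DCN, a matrix proteoglycan gene, rose by 2.43. LUM, from the same list, was lower, with means of 9.69 CPM with the TARDBP hairpin, 15.9 CPM with control hairpin 1 and 28.1 CPM with control hairpin 2. EPCAM, an epithelial adhesion gene singled out after its values were seen, had the largest rise of the list, 2.57, with 3.36 and 6.86 CPM with the TARDBP hairpin, against 1.17 and 0.392 CPM with control hairpin 1 and 0.948 and 0.942 CPM with control hairpin 2. The other epithelial genes of the list, KRT8 and KRT18, were above control hairpin 1 only. Their means were 5.62 and 21.4 CPM with the TARDBP hairpin, 1.71 and 8.66 CPM with control hairpin 1, and 6.52 and 99.95 CPM with control hairpin 2. The endothelial gene CDH5 was at 0 in all 6 libraries and the leukocyte gene PTPRC had 0 to 6 counts. The part of these genes in the stathmin values was not tested.

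Kinases and phosphatases that act on stathmins moved in both directions. Of 17 tested, 7 fell and 5 rose against the mean of both controls, with a median of -0.10, and 5 were not called. Falls and rises over all features stood at 24.3% and 23.9% in this comparison. UHMK1, which encodes the stathmin kinase KIS, had the lowest p. It stood at 435 and 394 CPM with the TARDBP hairpin, 122 and 114 CPM with control hairpin 1, and 272 and 259 CPM with control hairpin 2. UHMK1 rose by 1.23 (SE 0.0770, adjusted p = 1.44e-05, edgeR), and it was also higher in control hairpin 2 than in control hairpin 1 by 1.17. CAMK4, a calcium-dependent kinase that phosphorylates stathmin, fell by 0.92, at 27.3 ± 3.01 CPM with the TARDBP hairpin, 58.2 ± 4.13 CPM with control hairpin 1 and 45.8 ± 0.592 CPM with control hairpin 2. AURKB, a mitotic kinase, fell by 4.21, a value that rests on 7 and 4 counts with the TARDBP hairpin. Its control groups lay far apart, with 17 and 57 counts for control hairpin 1 and 266 and 371 for control hairpin 2. MAPK8, which encodes the kinase JNK1 that phosphorylates STMN2 and was singled out after its values were seen, fell by 0.52 (SE 0.0870).

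The list of DLK and JNK signalling and axon survival genes had 3 falls and 2 rises among 9 tested genes, with a median of -0.19. These calls are against the mean of both controls, where 48.2% of all features were called. MAPK8IP1, a scaffold for JNK, fell by 1.03 (SE 0.148, adjusted p = 7.25e-04), with 44.4 and 30.1 CPM with the TARDBP hairpin against 106 and 111 CPM with control hairpin 1 and 50.7 and 56.3 CPM with control hairpin 2. SARM1, an axon degeneration enzyme, fell by 0.55, and NMNAT2, an axon survival enzyme that is turned over with STMN2, by 0.58. MAP3K12 and MAP3K13, which encode the upstream kinases DLK and LZK, rose by 0.42 and 0.35. Both rises rest on control hairpin 2 (0.66 and 0.48), since neither gene was called against control hairpin 1 (0.17 and 0.22, adjusted p = 0.289 and 0.112, edgeR). Against control hairpin 1, 0 genes of the list rose and 4 fell, beside 21.1% and 21.8% of all features. NMNAT2 was called against control hairpin 1 (-0.73) and not against control hairpin 2 (-0.42, adjusted p = 0.107), and its call against the mean of both was lost under upper quartile scaling (-0.45, adjusted p = 0.0591). The calls of NMNAT2 and MAP3K12 were lost without TARDBP hairpin replicate 2 (-0.31 and 0.25). Without control hairpin 1 replicate 1 or control hairpin 2 replicate 1 NMNAT2 was not called either, and MAP3K13 was not called without TARDBP hairpin replicate 1 or control hairpin 2 replicate 2.

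Among palmitoyltransferases and binding partners 1 gene fell and 3 rose of 8 tested, with a median of -0.14. This was against the mean of both controls, where 48.2% of all features were called. ZDHHC7, an enzyme that attaches palmitate to STMN2, fell by 0.50 (SE 0.0831, adjusted p = 0.00158). RGS20, which encodes a regulator of G-protein signalling that binds STMN2, rose by 0.90. CDKN1B, which encodes the stathmin-binding cell cycle inhibitor p27, rose by 0.30, and STAT3, a transcription factor that binds stathmin, by 0.28. These 3 genes rose against control hairpin 1 and were not called against control hairpin 2. In the latter comparison 0 genes of the list rose and 2 fell, beside 24.0% and 26.2% of all features. Against control hairpin 2 the values were 0.50 for RGS20, 0.18 for CDKN1B and 0.06 for STAT3 (adjusted p = 0.162 to 0.591). Each of the 3 rises against the mean of both controls was lost without TARDBP hairpin replicate 2 (adjusted p = 0.0682 to 0.136), and without that library ZDHHC7 was the only call left of the list. Without control hairpin 2 replicate 1, STAT3 and CDKN1B were not called and 2 genes of the list were. STAT3 was also lost without TARDBP hairpin replicate 1, RGS20 without control hairpin 2 replicate 2, and CDKN1B without control hairpin 1 replicate 2 and with DESeq2 (adjusted p = 0.0673).

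Tubulin genes encode the protein that stathmins bind. Against the mean of both controls 9 of the 12 tested fell and 1 rose, with a median of -1.08, beside 24.3% and 23.9% of all features. The comparisons against each control differed in count. Against control hairpin 2, 9 fell and 1 rose (26.2% and 24.0% of all features did), and the median was -1.64. Against control hairpin 1, 4 fell and 2 rose (21.8% and 21.1% of all features did), and the median was -0.31. Between the control hairpins 10 of 12 were higher in control hairpin 2 and none lower, with a median of 0.95. Of all features, 22.8% were higher there. Summed tubulin levels were, like STMN1, highest in control hairpin 2, with 1126 and 891 CPM with the TARDBP hairpin, 1057 and 1642 CPM with control hairpin 1, and 2876 and 3696 CPM with control hairpin 2. TUBB2A fell by 1.50 (SE 0.133), TUBB2B by 1.48, TUBB6 by 1.32 and TUBA1A, the main alpha tubulin of neurons, by 1.30. Tubulin genes are near-identical in places, and the sources at hand do not state how reads were divided among them.

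Other microtubule destabilisers had 5 falls and 1 rise among 12 tested genes, with a median of -0.16. Over all features 24.3% fell and 23.9% rose against the mean of both controls. The mitotic kinesin genes KIF2C and KIF18B fell by 4.79 and 4.35, at 0.441 ± 0.18 and 0.674 ± 0.0019 CPM with the TARDBP hairpin, 5.51 ± 2.6 and 5.69 ± 2.4 CPM with control hairpin 1, and 27.5 ± 3.4 and 33.5 ± 3.5 CPM with control hairpin 2. The severing enzyme gene SPAST fell by 0.71. Stabilisers and end-binding proteins fell in 9 of 21 genes and rose in none against the mean of both controls, with a median of -0.22. Against control hairpin 1, 13 fell and 2 rose (21.8% and 21.1% of all features did). Against control hairpin 2, 6 fell and 2 rose (26.2% and 24.0% of all features). Between the control hairpins 9 were lower in control hairpin 2 and 2 higher (20.4% and 22.8%). DCX, a microtubule protein of young neurons, fell by 1.37 against the mean of both controls (SE 0.162, adjusted p = 2.79e-04, edgeR). In that comparison its relative DCLK1 fell by 1.07, the end-binding gene MAPRE2 by 1.01 and MAP1A by 0.60. DCX stood at 39.9 and 27.3 CPM with the TARDBP hairpin, against 72.9 to 101 CPM in the 4 control libraries, and its difference between the control hairpins was 0.23 (adjusted p = 0.311). Of the genes named by lowest p in each list, 0 reversed direction against the mean of both controls under any setting tried. Other list genes and the values against each control were not put through these settings. Pooling the controls as 1 group ended calls that included those of UHMK1, AURKB, MAPK8IP1, MAP3K12, MAP3K13, NMNAT2, STAT3, RGS20, CDKN1B, FOXM1, REST, SIN3A, TUBB6, TUBA1A, MAPRE2, MAP1A, CCNB1 and COL1A1.

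**Figure D4:**
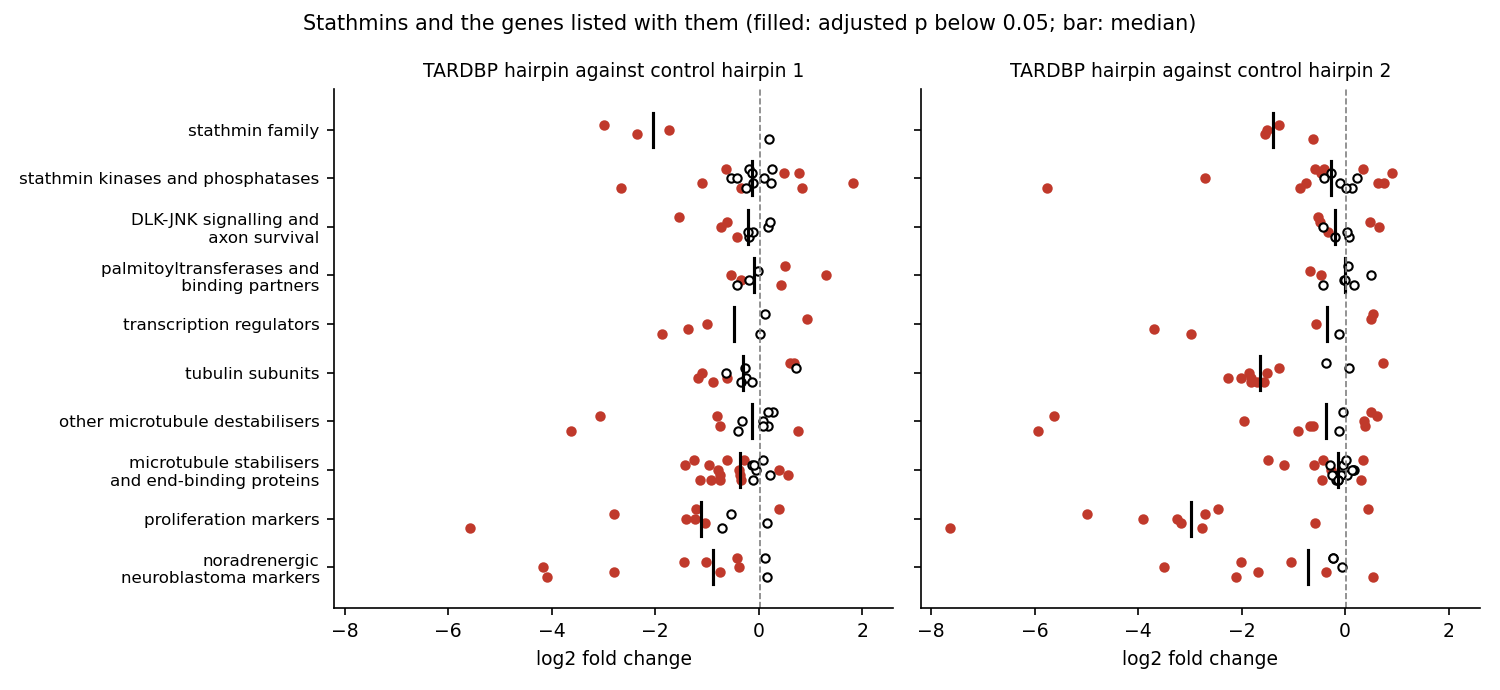
Log2 fold changes of the tested members of each gene list against control hairpin 1 (left) and control hairpin 2 (right). Filled points are called at an adjusted p below 0.05, black bars are list medians and the dashed line is the median of all features. The tubulin median is -0.31 on the left and -1.64 on the right, while the stathmin medians are -2.05 and -1.39.

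The genes whose profiles lay nearest to each stathmin were found by the root mean square difference of mean-centred log2 CPM over the 6 libraries, among 10024 expressed genes with characterised symbols. This is a description, since 6 libraries in 3 groups leave many genes with like profiles. Nearest to STMN1 were IL4R, TMEM177, PCNA, TAGLN3 and ATP1B3, at differences of 0.05 to 0.06. PCNA, the replication clamp, had 52.3 and 56.5 CPM with the TARDBP hairpin, 45.3 and 52.6 CPM with control hairpin 1, and 77.8 and 85.9 CPM with control hairpin 2. Among the 5 nearest to STMN2 were CERK, SYP, WSB2 and SPOCK1, at 0.07 to 0.10. SYP, the synaptic vesicle protein synaptophysin, had 6.93 and 6.18 CPM with the TARDBP hairpin, 38.7 and 37.6 CPM with control hairpin 1, and 22.4 and 19.9 CPM with control hairpin 2.

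Among the 5 nearest to STMN3 were SLC43A2, RNPEPL1, ADGRL1 and TMCC2, at 0.08 to 0.13. For STMN4 the 5 nearest genes included EPAS1, NECTIN1, CHGB and KLF13, at 0.10 to 0.28. EPAS1, which encodes the hypoxia factor HIF-2 alpha, had 32.4 and 23.6 CPM with the TARDBP hairpin, 221 and 193 CPM with control hairpin 1, and 59.8 and 66.1 CPM with control hairpin 2. Within the family, STMN4 and STMN2 were 0.38 apart, STMN2 and STMN3 0.32, and STMN3 and STMN4 0.67. STMN1 lay 0.82 to 1.38 from the other 3. Among the 10024 genes, STMN2 ranked 14 and STMN3 178 seen from STMN4, STMN3 ranked 80 and STMN4 138 seen from STMN2, and STMN2 ranked 261 and STMN4 2765 seen from STMN3.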

How the data were processed

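Strand-specific libraries were made from ribosomal RNA-depleted total RNA of SH-SY5Y cells, per the labels' protocols. The authors deposited raw counts per gene symbol and repeat subfamily, 1 file per library, and STAR 2.5.2b, bcl2fastq and build hg19 are named in the submitters' processing notes. For the counting tool, the annotation, the strand setting and multiply mapped reads, the sources hold no statement. Reads shared with the pseudogenes of STMN1 and STMN3 that RefSeq annotates, or with transcripts overlapping STMN1 or STMN2, could therefore be counted either way.

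Counts were analysed in R 4.3.3 with edgeR 4.0.16. Features were kept by filterByExpr (minimum count 10, minimum total 15), which left 17163 of 28953 and all 4 stathmins. Libraries were scaled by TMM, and a quasi-likelihood model with 3 groups covered all 6 libraries (3 residual degrees of freedom). SE was derived from the log2 fold change and its F statistic. Alternatives were other scalings, no filter, genes only, DESeq2 1.42.0, fits of the compared groups, pooled controls, a replicate block and leaving out each library. Ratios used CPM + 0.5. The code was tested on simulated data.

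The members, gene lists and tests were chosen with earlier results of these data known. Named genes are the members, TARDBP, in each list the 4 called genes with the lowest p (all where 5 or fewer were called), and the 5 genes nearest to each member above a mean log2 CPM of 3. Confidence intervals come from the fitted model. A few genes that this rule names are not reported here.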

Additional observations from a re-analysis of the deposited data

How the results depend on the processing

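The falls of STMN2, STMN3 and STMN4 with the TARDBP hairpin kept their direction under every alternative run, and their calls under all but 1. With the 4 control libraries pooled as 1 group, STMN4 had a log2 fold change of -2.38 (adjusted p = 0.0556), and 1054 features were called higher and 1518 lower, against 4102 and 4167. This setting by construction counts the difference between the control hairpins as spread, and 20 of 44 other named genes lost their call under it. Upper quartile scaling called STMN1 higher against control hairpin 1 (0.30, adjusted p = 0.0491) and shifted the median of all features by 0.10 to 0.15 in comparisons of the TARDBP hairpin. The log2 ratio of STMN2 to STMN4 turned to -0.088 with CPM + 2, and the cause was not tested.

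Leaving out each library in turn gave -0.28 to -0.14 for STMN1 against the mean of both controls, -2.08 to -1.84 for STMN2, -1.88 to -1.40 for STMN3 and -2.22 to -2.06 for STMN4. The ratio of STMN2 to STMN4 ran from -0.072 to 0.277. Features called higher ran from 2622 to 3625 against the mean of both controls, from 2337 to 3374 against control hairpin 1, and from 2151 to 3950 against control hairpin 2. Between the control hairpins 2472 to 3896 were called higher and 1661 to 3448 lower. The lowest counts came without TARDBP hairpin replicate 2, control hairpin 1 replicate 1 or control hairpin 2 replicate 2. Calls ran from 3 to 5 in the DLK and JNK list and from 1 to 5 in the palmitoylation list.

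The replicate numbers did not pair the libraries. Deviations of same-numbered libraries correlated at -0.23 and -0.25 between the TARDBP hairpin and control hairpins 1 and 2, and at 0.23 between the controls. With the replicate number as a block, STMN2 was at -1.96, STMN3 at -1.62, STMN4 at -2.14 and STMN1 at -0.21 against the mean of both controls. There 3741 features were called higher and 3902 lower, and no stathmin call changed. A block by replicate number cannot take up a batch or quality difference that follows another order of the libraries. Such a difference was not tested.

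At 129 and 115 counts, STMN4 with the TARDBP hairpin has the least depth of the members. With 2 libraries a group, 1 library can decide a small change.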
